A study of Mus musculus with 4 samples.

Results

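A set of 6 genes of the gamma-delta T cell receptor system were followed through the leukocytes of the mouse lung: Trdc, Trdv4, Tcrg-C1, Tcrg-C2, Tcrg-C4 and Cd163l1. They were taken by symbol from the gene list that all libraries shared, so the set held 6 of 31053 genes, and each of the 6 had at least 1 UMI (unique molecular identifier, one counted RNA molecule) in every library. Single-cell RNA was measured with the 10x Genomics 3′ v3 chemistry in live lung cells (7-AAD-negative) sorted for the leukocyte antigen CD45.2. There were 4 groups of male C57BL/6 mice, aged 5 to 10 weeks, with 1 library in each group. DPBS WT and DPBS KO mice were given DPBS, the buffer. Papain WT and Papain KO mice were given 25 µg of papain, a protease allergen, through the nose on 3 consecutive days and again on day 14, and lungs were taken on day 15. Where 4 values follow each other without group names, they stand in a fixed library order, DPBS before papain and, within each treatment, WT before KO.

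WT mice carried floxed Ift20 alleles without Cre (Ift20 f/f), and KO mice carried the same alleles with a CD4-cre transgene (Ift20 f/f CD4 cre), which removes exons 2 and 3 of Ift20. Both genotypes thus shared the floxed allele, and the transgene itself was present in KO mice alone. CD4-cre is switched on at the thymic stage at which developing T cells first make CD4, so it acts in conventional CD4 and CD8 T cells. Gamma-delta T cells mostly leave the thymus without passing through that stage. With 1 library per group, no value below has a replicate check and none was tested, and the sources used here do not say how many mice went into a library. Intervals are exact 95% intervals that cover counting error only.

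A gamma-delta T cell receptor pairs a delta chain with a gamma chain, and it is carried by a minority of T cells that sit in epithelia and barrier tissues, the lung among them. Trdc is the constant gene of the delta chain. The delta locus lies inside the alpha locus, and a cell that joins its alpha chain gene deletes Trdc from that chromosome, whereas Trac, the alpha constant gene, is still present in a gamma-delta T cell. Trdv4 is a delta variable gene used with the Vγ6 chain by cells of fetal origin that make IL-17. Tcrg-C1, Tcrg-C2 and Tcrg-C4 are gamma constant genes, each placed behind its own set of variable genes, with Tcrg-C4 behind Vγ1. Cd163l1 encodes SCART1, a scavenger receptor family protein known from IL-17-making gamma-delta T cells. NK cells and group 2 innate lymphoid cells (ILC2) express no T cell receptor on their surface, and both are known to carry transcripts of receptor genes.

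The gamma constant genes are closely related copies of one another, which bears on how 3′ reads can be assigned. Their first 60 bases are shown so that the closeness of Tcrg-C1 and Tcrg-C2 can be seen. Capitals mark the 11 positions at which the 3 genes are not all alike. The sequences were read 5′ to 3′ on the coding strand from the mm10 (GRCm38) genome, at chr13:19214103-19214162 on the plus strand for Tcrg-C1, at chr13:19307492-19307551 on the minus strand for Tcrg-C2 and at chr13:19344558-19344617 on the plus strand for Tcrg-C4. All lie in exon 1, the constant domain.
Tcrg-C1: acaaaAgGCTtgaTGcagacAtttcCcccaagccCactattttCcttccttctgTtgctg
Tcrg-C2: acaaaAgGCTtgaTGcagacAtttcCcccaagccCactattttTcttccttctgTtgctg
Tcrg-C4: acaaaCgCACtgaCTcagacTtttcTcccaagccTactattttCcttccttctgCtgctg

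The genes part ways at the hinge, the stretch between the constant domain and the membrane, which is shown because its length differs among the 3 genes. Hinge exons are in capitals and 10 bases of the neighbouring exons are in lower case. The Tcrg-C1 hinge is 1 exon of 45 bases (exon 2, chr13:19215864-19215908, plus strand), that of Tcrg-C2 is 1 exon of 30 bases (exon 2, chr13:19305769-19305798, minus strand), and that of Tcrg-C4 is 99 bases in 2 exons (exons 2 and 3, chr13:19349536-19350374, plus strand, with the intron left out of the run).
Tcrg-C1 hinge: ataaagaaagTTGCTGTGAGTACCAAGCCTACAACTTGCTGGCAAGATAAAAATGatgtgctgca
Tcrg-C2 hinge: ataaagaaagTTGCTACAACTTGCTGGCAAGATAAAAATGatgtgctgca
Tcrg-C4 hinge: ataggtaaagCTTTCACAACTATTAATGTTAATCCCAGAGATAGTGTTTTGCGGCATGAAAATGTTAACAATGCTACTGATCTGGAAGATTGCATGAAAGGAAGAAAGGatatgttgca

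Over the 330 bases of exon 1, Tcrg-C1 and Tcrg-C2 were 97.3% identical, while Tcrg-C4 was 82.1% identical to Tcrg-C1 and 81.5% to Tcrg-C2. Of all windows of 50 bases in the Tcrg-C1 transcript, 17.9% also occurred in Tcrg-C2 and 0 in Tcrg-C4, and in the last 300 bases, where 3′ reads fall, 21.9% were shared with Tcrg-C2. Counts split between Tcrg-C1 and Tcrg-C2 are therefore less certain than counts of Tcrg-C4. Tcrg-C1 spans chr13:19214103-19217024, Tcrg-C2 chr13:19304649-19307551 and Tcrg-C4 chr13:19344558-19352756. Trdc (chr14:54142851-54148868, plus strand, 4 exons) and Trdv4 (chr14:54074905-54075515, plus strand) lie upstream of Trac (chr14:54220521-54224206), and Cd163l1 has 14 exons on chr7:140218267-140231145, plus strand.

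The 4 libraries held 5863 to 8552 barcodes, of which 5421 to 7559 passed the filters (25831 cells in all), and the median depth of kept cells was 5827 to 6678 UMIs. Libraries shared 7 to 16 barcodes with each other, at most 0.222% of a library. Clusters were named from markers that held no receptor gene and none of the 6 genes. This gave 8733 T-like cells (2656, 1730, 2430 and 1917 in the library order), 367 NK-like cells and 273 ILC2-like cells, beside B-like cells, macrophages and other leukocytes. The T-like class was made of 13 sub-clusters. Among the leading genes of 3 of them, with 602, 302 and 247 cells, markers of monocytes (Ly6c2), NK cells (Klre1 and Klrk1) or dividing cells outnumbered T cell markers. Ratios in T-like cells are therefore also given without these 3 where the value moves, a setting that was not planned. The sub-cluster of 602 cells was marked by Ly6c2 alone, and 98.3% of its cells had Cd3e and 94.9% had Cd8a or Cd8b1.

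Transcripts of the 6 genes lay mostly in T-like cells, and each innate class carried its own selection of them. Of 3361 Trdc UMIs, 90.7% were in T-like and 6.22% in NK-like cells. Cd163l1 (447 UMIs) was at 94.2% in T-like cells, and Tcrg-C2 (759 UMIs) was at 95.3%. Tcrg-C4 (857 UMIs) had 77.7% in T-like and 17.4% in ILC2-like cells, and Tcrg-C1 (744 UMIs) had 87.1% and 6.45%. Trdv4, the rarest with 83 UMIs, was the least tied to T-like cells, which held 53.0% of it, while 27.7% lay in ILC2-like and 16.9% in NK-like cells.

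In T-like cells, 452 of 8733 cells (5.18%) had a Trdc UMI, 273 had Tcrg-C1, 270 Tcrg-C2, 250 Tcrg-C4, 105 Cd163l1 and 19 Trdv4. B-like cells and alveolar macrophage-like cells, which should lack all of these, gave the level of free or misassigned RNA. Trdc was found in 0.212% of B-like cells (median depth 4286 UMIs) and in 0.163% of alveolar macrophage-like cells (median 18506), against a median of 6392 UMIs in T-like cells. Shares of the 3 gamma constant genes in those classes were 0.0398 to 0.14%, those of Cd163l1 were 0.0531% and 0.0466%, and Trdv4 was found in 0 of 7538 B-like cells, which allows a share of up to 0.0398%. All shares in T-like cells were above these. Thinned to 1000 UMIs per cell, with 15 shallower T-like cells left out, the share with Trdc was 2.64% in T-like and 0.0799% in B-like cells.

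**Figure D1:**
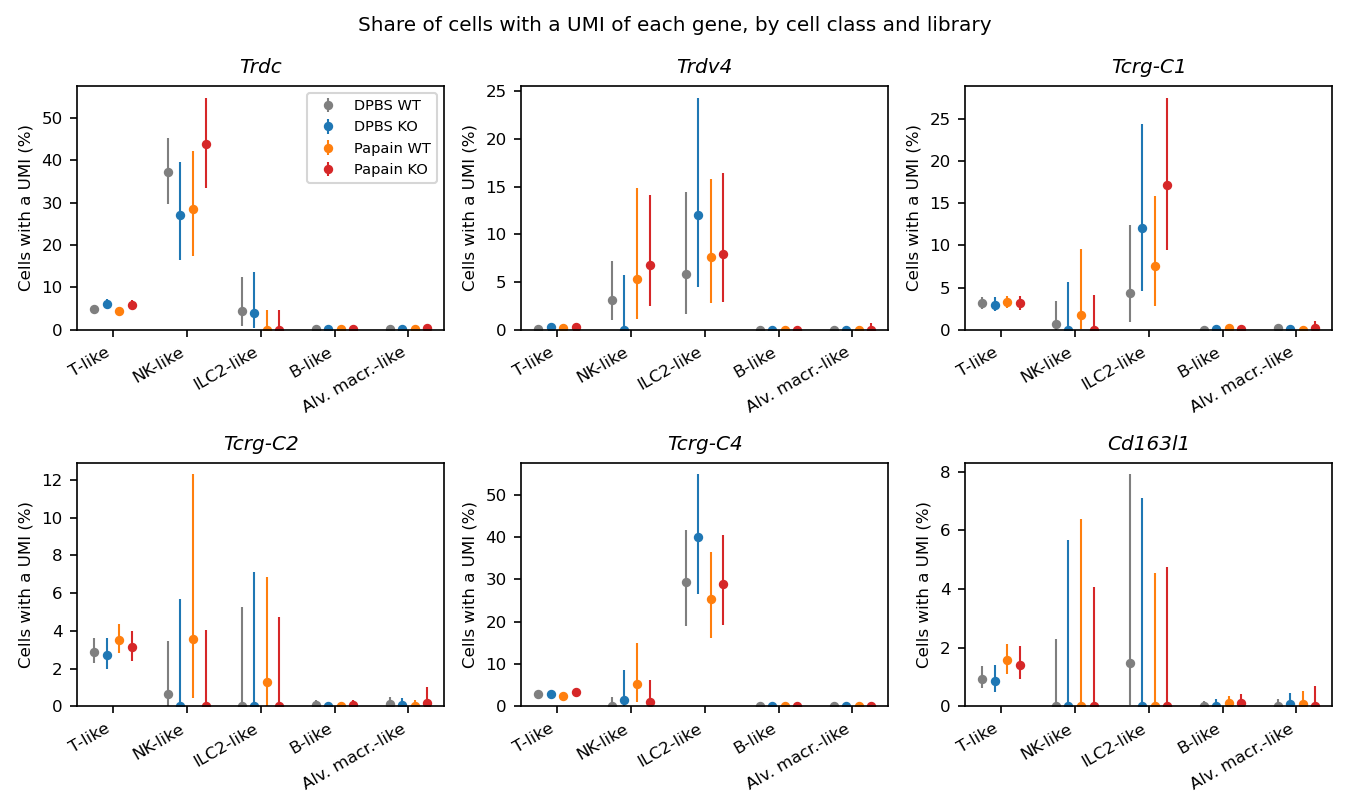
Share of cells with at least 1 UMI of each of the 6 genes (percent of cells, with exact binomial 95% intervals) in T-like, NK-like, ILC2-like, B-like and alveolar macrophage-like cells of each library. Trdc was most often found in NK-like cells (27.0 to 43.8% of cells), Tcrg-C4 in ILC2-like cells (25.3 to 40%), and B-like and alveolar macrophage-like cells stayed close to 0.

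Trdc itself came as many weak and few strong carriers. Of the T-like cells, 222 had 1 or 2 Trdc UMIs, 90 had 3 to 7 and 140 had 8 or more, and these 140 held 76.4% of all Trdc UMIs in the class. The single strongest cell had 54. Other receptor genes differed along this scale. Any of Tcrg-C1, Tcrg-C2 and Tcrg-C4 was found in 3.5% of cells without Trdc, 9.46% of those with 1 or 2 UMIs, 62.2% with 3 to 7 and 90.7% with 8 or more. Trac went the other way, at 90.7%, 86.9%, 50% and 40.7%.

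The coreceptors differed along it too. Cd4, the coreceptor of helper T cells, was found in 36.5%, 27.5%, 10% and 6.43% of T-like cells over the 4 steps of Trdc, and Cd8a or Cd8b1 in 42.9%, 39.6%, 34.4% and 22.9%. Neither coreceptor was found in 24.1% of cells without Trdc and in 72.9% of those with 8 or more. Cd163l1 was found in 0.845%, 1.35%, 7.78% and 17.9% of cells over the same steps. Cells with 1 or 2 Trdc UMIs were thus closer to cells without Trdc than to cells with 3 or more in Trac, Cd4 and the gamma constant genes, while Cd8 had no such break.

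**Figure D2:**
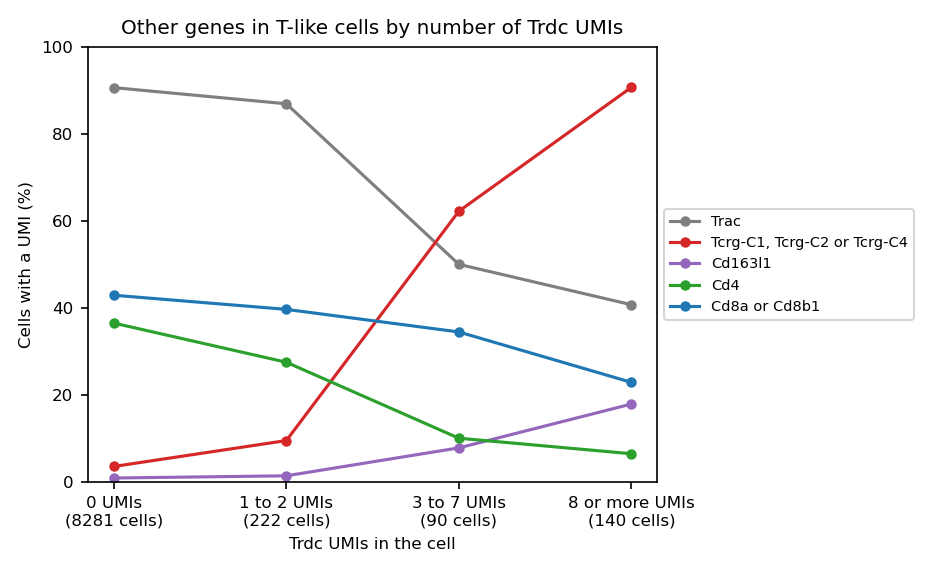
Percent of T-like cells, all 4 libraries together, with Trac, any of the 3 gamma constant genes, Cd163l1, Cd4 or Cd8 (Cd8a or Cd8b1), by the number of Trdc UMIs in the cell (0, 1 to 2, 3 to 7, and 8 or more). The gamma constant genes go from 3.5% to 90.7% and Trac from 90.7% to 40.7% over the 4 steps.

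Trac stays in the genome of gamma-delta T cells and is deleted from no chromosome by delta chain joining. Its RNA therefore does not tell the lineages apart by itself. Cells with Trdc and no Trac UMI were used as 1 working set of carriers. It leaves out the 40.7% of T-like cells with 8 or more Trdc UMIs that had Trac, although 90.7% of those strong cells had a gamma constant gene. The set had 157 cells, of which 142 had at least 2 Trdc UMIs. They were 41 from WT and 36 from KO mice given DPBS, and 51 from WT and 29 from KO mice given papain. Of them, 78.3% had a gamma constant gene, against 3.49% of T-like cells with Trac and no Trdc. Neither Cd4 nor Cd8 was found in 77.7%, against 23.5%. Cd163l1 was found in 13.4%, against 0.919%, and Trdv4 in 7.01%, against 0 of 7507 cells.

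These 157 cells were taken from the T-like class, whose sub-clusters had to have Cd3e in at least 70% of their cells. Cd3e, a signalling subunit that both receptor types share, was found in 90.4% of the 157 cells. That share follows in part from the selection and is no separate evidence that they are T cells. Trbc2, a constant gene of the beta chain, was found in 93% and Trbc1 in 64.3%, so a beta chain transcript does not set them apart from other T cells. A rule that also required no Trbc1 and no Trbc2 UMI left 5 cells.

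Gamma constant genes divided the 157 cells further. By the gamma constant gene with most UMIs, 31 cells were led by Tcrg-C1, 37 by Tcrg-C2 and 28 by Tcrg-C4, with 27 tied and 34 without any. Of the 31 led by Tcrg-C1, 14 had Cd163l1, 8 had Trdv4, and 14 had Il17a or Il17f, cytokine genes of the type 17 response. Of the 37 led by Tcrg-C2, 1 had Cd163l1, and 0 had Trdv4 or an IL-17 gene. Of the 28 led by Tcrg-C4, 3 had Cd163l1, 0 had Trdv4 and 1 had an IL-17 gene. Cd27, a costimulatory receptor, was found in 54.8%, 73.0% and 78.6% of the cells of the 3 kinds. The surface receptor 5830411N06Rik (Scart2), a relative of Cd163l1, did not follow Cd163l1, with 6, 9 and 6 cells.

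Over all T-like cells the 3 gamma constant genes had nearly equal parts, with Tcrg-C1 at 31.8%, Tcrg-C2 at 35.5% and Tcrg-C4 at 32.7% of 2037 UMIs. With DPBS the share of Tcrg-C4 was 27.3% (23.6 to 31.1%) in WT and 36.0% (31.4 to 40.8%) in KO. With papain it was 29.3% (25.3 to 33.6%) in WT and 38.6% (34.6 to 42.8%) in KO. The top 10 cells held 38.3 to 53.7% of the Tcrg-C4 UMIs of a library, so these intervals are too narrow for the number of cells sampled. The share of Tcrg-C2 was 39.3%, 33.2%, 39.3% and 30.1% in the library order. Over all T-like cells Tcrg-C4 thus had the larger share, and Tcrg-C2 the smaller, in both KO libraries. In the 157 cells with Trdc and no Trac this did not hold with papain, where Tcrg-C4 had 31.9% in WT and 30.9% in KO and Tcrg-C2 had 38.4% and 44.9%. Tcrg-C3 had 0 UMIs in every class.

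Sub-clusters of T-like cells differed in which of the genes they carried, and those described here were singled out after their values were seen. A sub-cluster of 68 cells whose leading gene was Trdc had the highest Trdc level, with 1319 CPM (counts per 1000000, the UMIs of the gene per 1000000 UMIs summed over the cells) and Trdc in 76.5% of cells. It was also rich in Tcrg-C4 (384 CPM), which made up 47.3% of its gamma constant UMIs, and had Tcrg-C2 at 265 CPM and Tcrg-C1 at 164 CPM. Trdv4 and Il17a were found in 0 of its cells. A sub-cluster of 302 cells led by Klra7, an NK receptor of the Ly49 family, had Trdc at 192 CPM in 16.2% of cells. The type 17 T-like sub-cluster had Trdc at 367 CPM, and the next highest T-like sub-cluster, led by Gzmm, had 55.4. A regulatory T-like sub-cluster of 211 cells had 0 Trdc UMIs.

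The type 17 T-like sub-cluster, 197 cells with Il17a among the leading genes, had another selection. It held 37 of the 44 Trdv4 UMIs of T-like cells and 6 of the 7 UMIs of Tcrg-V6, the variable gene of the Vγ6 chain. Tcrg-C1 made up 62.5% of its gamma constant UMIs, against 20.1% in the sub-cluster led by Trdc. Of its 20 cells with 8 or more Trdc UMIs, 18 had Cd163l1 and 17 had Il17a. It was a mixture, since 163 of its 197 cells had Trac and 97 had Cd4.

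**Figure D3:**
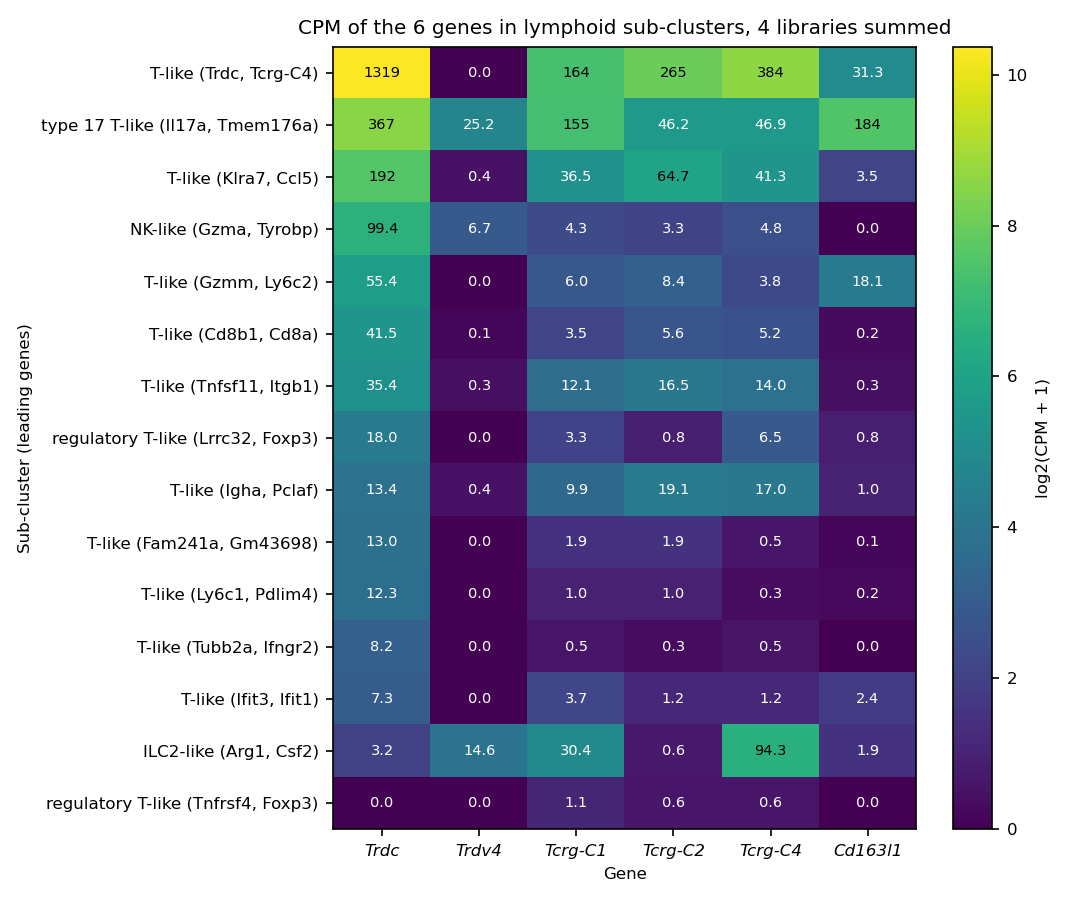
Level of the 6 genes in each sub-cluster of T-like, NK-like and ILC2-like cells, all 4 libraries together, in CPM on a log2(CPM + 1) colour scale. Trdc peaks in the sub-cluster it leads (1319 CPM), and Trdv4 and Cd163l1 in the type 17 T-like sub-cluster.

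Trdv4 was joined to the other genes of this selection. Of the 19 T-like cells with Trdv4, 16 had Trdc, 14 had Tcrg-C1 and 12 had Cd163l1. Other delta variable genes were as rare in T-like cells: Trdv1 had 43 UMIs, Trdv2-2 had 42 and Trdv5 had 17, beside 44 of Trdv4. Among the gamma variable genes Tcrg-V1 had 25, Tcrg-V4 had 8, Tcrg-V7 had 0 and Trgv2 had 121. Variable segments lie at the 5′ end of the transcript, far from where 3′ libraries read, and these counts say little about which receptor a cell carried.

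Most Cd163l1 carriers lay in 2 sub-clusters. Of 105 T-like cells with Cd163l1, 35 had Trdc, 83 had Trac and 67 had Cd8a or Cd8b1. The type 17 T-like sub-cluster had 26 of the carriers and 271 UMIs, or 10.4 UMIs per carrier. A sub-cluster led by Gzmm (granzyme M, a cytotoxic protease), with a Cd8 UMI in 571 of its 602 cells, had 57 carriers and 108 UMIs, or 1.89 per carrier. Of those 57, 2 had Trdc, against 21 of the 26 in the type 17 T-like sub-cluster. Some carriers with Trdc lay elsewhere. The sub-cluster led by Trdc had 5 carriers, all with Trdc, and that led by Klra7 had 5, of which 4 had Trdc.

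The Cd8-rich carriers were not confined to 1 library. In the Gzmm-led sub-cluster, Cd163l1 was found in 11, 6, 25 and 15 cells, which was 6.67%, 5.36%, 13.2% and 11.1% of its cells. Its level there was 12.6, 13.4, 26.8 and 15.9 CPM. In B-like cells Cd163l1 was found in 0.0531%, so these shares were above the level of free RNA. Both papain libraries had the higher share of carriers.

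NK-like cells carried Trdc more often than T-like cells did, but at a low level per cell. Trdc was found in 131 of 367 NK-like cells (35.7%), at 37.1%, 27.0%, 28.6% and 43.8% of cells in the library order, with median depths of 4932 to 5752 UMIs. Thinned to 1000 UMIs, with 0 cells left out, it was found in 8.18%, 1.59%, 7.14% and 11.2%. Of the 131 carriers, 120 had 1 or 2 UMIs and 2 had 8 or more. Those 2 cells also had Cd3e and a gamma constant gene.

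The other members were scarce in NK-like cells. Gamma constant genes were almost absent, with 9 UMIs of Tcrg-C1 in 2 cells, 7 of Tcrg-C2 in 3 cells and 10 of Tcrg-C4 in 5 cells, and 1 Papain WT cell held 7 of those 9. Trdv4 was found in 14 cells with 1 UMI each (3.81%), and Trdv2-2 in 19 cells. Cd163l1 was found in 0 of 367 cells, which allows a share of up to 0.817%. Trac was found in 18.0% and Trbc1 in 82.6% of NK-like cells, while Cd3e was found in 4.63%.

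The Trdc level in NK-like cells with DPBS was 124 CPM in WT (106 UMIs) and 51.6 in KO (20 UMIs). With papain it was 86.2 CPM in WT (27 UMIs) and 102 in KO (56 UMIs). DPBS KO was the lowest. The KO to WT log2 ratio was -1.27 (-2.04 to -0.57) with DPBS and 0.24 (-0.45 to 0.96) with papain. Without the NK-like cells that had a Cd3e UMI, those ratios were -0.83 (-1.62 to -0.11) and 0.81 (-0.04 to 1.74). Since a DPBS KO value rests on 63 cells from 1 library, it cannot be told apart from a difference between mice.

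ILC2-like cells carried Tcrg-C4 in place of Trdc. Tcrg-C4 was found in 30.0% of 273 cells, with carriers in 20 of 68, 20 of 50, 20 of 79 and 22 of 76 cells of the libraries in their order (29.4%, 40%, 25.3% and 28.9%). Thinned to 1000 UMIs, with 1 cell left out, the shares were 2.99%, 12.0%, 7.59% and 5.26%. The level was 101, 119, 73.4 and 99.0 CPM, and no ratio between libraries had an interval beyond 0. Of the 198 gamma constant UMIs in these cells, Tcrg-C4 had 75.3%, Tcrg-C1 24.2% and Tcrg-C2 0.505%.

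Tcrg-C1 in ILC2-like cells was lower and differed more between libraries, with 12.7 CPM (4 UMIs) in WT and 28.0 CPM (8 UMIs) in KO mice given DPBS, and 20.2 CPM (11 UMIs) in WT and 57.5 CPM (25 UMIs) in KO mice given papain. It was highest in Papain KO, with a log2 ratio of KO to WT of 1.51 (0.44 to 2.68) with papain and 1.14 (-0.76 to 3.33) with DPBS. The carriers in Papain KO were 13 cells, against 6 in Papain WT. Across all libraries 8 ILC2-like cells had both Tcrg-C1 and Tcrg-C4.

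Trdv4 was more frequent in ILC2-like cells than in T-like or NK-like cells, in 22 cells (8.06%) with 4, 6, 6 and 7 UMIs per library. Trdc had 5 UMIs in 5 cells, 0 cells had both Trdv4 and Trdc, and Cd163l1 had 3 UMIs in 1 cell. Trac was found in 8.42% and Cd3e in 5.86% of ILC2-like cells, while Trbc2 was found in 86.1%. The innate classes thus carried different members: NK-like cells had Trdc with few gamma constant transcripts, and ILC2-like cells had Tcrg-C4 and Tcrg-C1 with little Trdc.

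The design asks next how the genes differed by genotype and treatment. In T-like cells of mice given DPBS the Trdc level was 48.9 CPM (45.7 to 52.2) in WT and 49.2 (45.3 to 53.2) in KO. With papain it was 36.6 CPM (33.9 to 39.4) in WT and 55.6 (52.0 to 59.4) in KO. Papain WT was the lowest and Papain KO the highest. The KO to WT log2 ratio was 0.01 (-0.14 to 0.16) with DPBS and 0.60 (0.46 to 0.75) with papain, and that of papain to DPBS was -0.42 (-0.56 to -0.27) in WT and 0.18 (0.03 to 0.33) in KO. A few cells held a large part of the UMIs, the top 10 having 30.2 to 42.6% of Trdc in a library, so these intervals are too narrow for the number of cells sampled.

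The share of cells that carried Trdc was 4.82%, 6.13%, 4.40% and 5.79% in the library order, from 128, 106, 107 and 111 cells. It differed less than the level in each comparison except KO against WT with DPBS. There the log2 ratio was 0.35 (-0.04 to 0.73) for the share and 0.01 for the level. Thinned to 1000 UMIs, the shares were 2.53%, 2.84%, 2.56% and 2.71%, with 3, 4, 7 and 1 cells left out, at unthinned median depths of 5877, 6501, 6405 and 7128 UMIs. KO libraries were the deeper of each pair, and the part of depth in the unthinned difference was not tested. For all 6 genes and all 4 comparisons, the interval of the ratio of carrier shares included 0 on the log2 scale.

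Among the gamma constant genes in T-like cells, Tcrg-C4 differed most in CPM between genotypes. It was at 8.54, 12.4, 7.63 and 13.7 CPM, higher in both KO libraries, with KO to WT log2 ratios of 0.54 (0.21 to 0.87) and 0.85 (0.54 to 1.16). Tcrg-C1 was at 8.16 CPM in Papain WT and 11.1 in Papain KO, with a KO to WT log2 ratio of 0.45 (0.13 to 0.77) with papain and a papain to DPBS ratio of -0.36 (-0.68 to -0.05) in WT. A single Papain KO cell held 39 of the 175 Tcrg-C1 UMIs of its library. Without the top cell of each library the KO to WT ratio of Tcrg-C1 with papain was 0.15 (-0.20 to 0.50), and as a mean over cells it was -0.18. Tcrg-C2 was at 12.3, 11.5, 10.2 and 10.7 CPM, with KO to WT log2 ratios of -0.10 (-0.42 to 0.21) and 0.06 (-0.24 to 0.37). The carriers of Tcrg-C4 numbered 76, 52, 58 and 64.

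Trdv4 and Cd163l1, the genes of the type 17 selection, had their highest CPM in Papain KO, where 1 cell held 42 of the 144 Cd163l1 UMIs and 1 cell held 10 of the 24 Trdv4 UMIs. Trdv4 had 4, 8, 8 and 24 UMIs in 3, 5, 5 and 6 T-like cells, in the library order, or 0.222, 0.654, 0.424 and 1.53 CPM. Cd163l1 was at 5.60, 7.77, 4.29 and 9.16 CPM. KO stood over WT by a log2 ratio of 0.47 (0.05 to 0.89) with DPBS and 1.09 (0.69 to 1.5) with papain. Without the top cell of each library the Cd163l1 ratio with papain was 0.79 (0.34 to 1.25). As a mean over cells, Cd163l1 was lower in Papain KO than in DPBS KO, with a log2 ratio of -0.30, against 0.24 (-0.15 to 0.63) by CPM. Its carriers did not follow the level, with 25, 15, 38 and 27 cells.

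A difference of 2-fold or more was reached by few members. With DPBS, 1 of the 6 genes (Trdv4 at 1.56, from 8 and 4 UMIs, with an interval of -0.34 to 3.74) was 2-fold or more higher in KO than in WT T-like cells, where 3.82% of the genes with at least 20 UMIs differed by 2-fold or more in either direction. With papain it was 2 of 6 (Trdv4 at 1.85 and Cd163l1 at 1.09), against 4.26% of genes. For papain against DPBS it was 0 of 6 in WT, against 6.37%, and 1 of 6 in KO (Trdv4 at 1.22), against 3.66%. With 4 to 24 UMIs, Trdv4 was under the 20 UMIs of that background for KO against WT with DPBS and for papain against DPBS in WT.

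**Figure D4:**
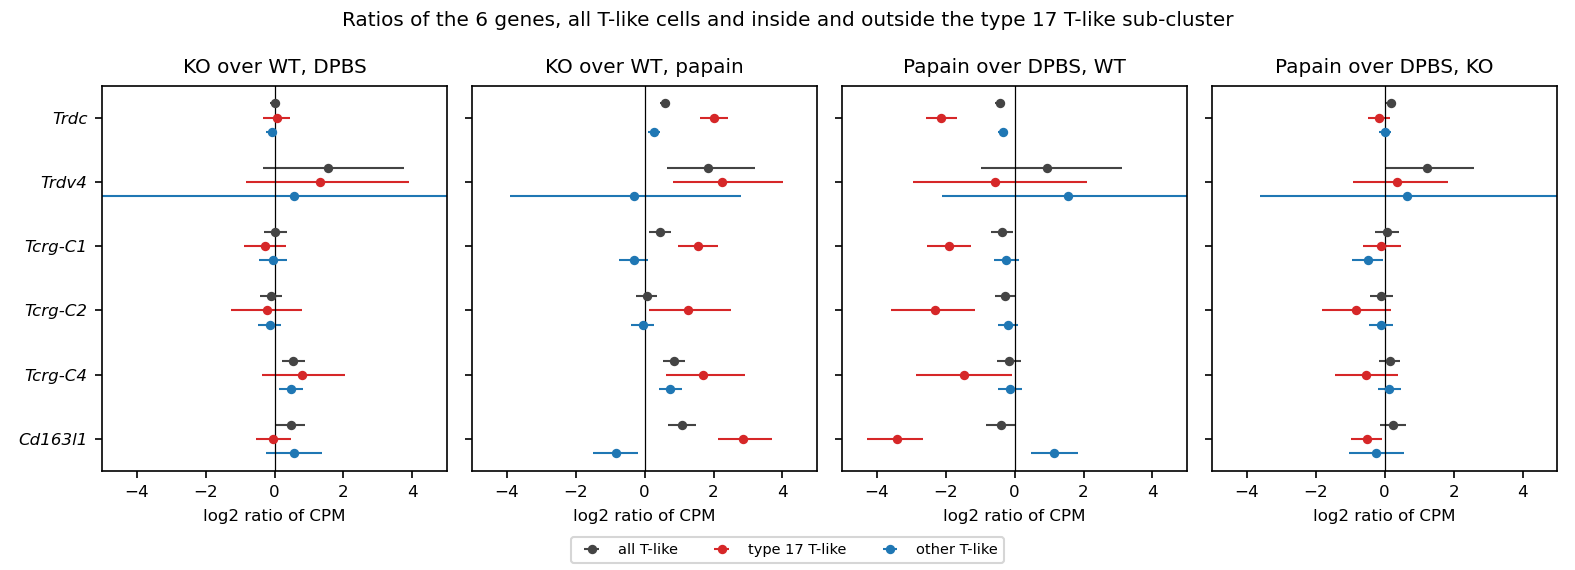
Log2 ratios of CPM of the 6 genes for KO against WT and papain against DPBS, with exact 95% counting intervals, in all T-like cells (black), type 17 T-like cells (red) and the other T-like cells (blue). With papain, the KO to WT ratio of Cd163l1 was 2.87 in type 17 T-like cells and -0.83 in the others.

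Values in the type 17 T-like sub-cluster differed from those in the other T-like cells for several members. In the sub-cluster, Trdc was at 526, 551, 121 and 490.4 CPM in the library order, so Papain WT stood apart from the rest. Cd163l1 was at 334, 327, 31.2 and 227 CPM and Tcrg-C1 at 247, 205, 66.0 and 191 CPM, with the same order of Papain WT below the rest. Trdv4 was at 13.7, 34.2, 9.16 and 43.9 CPM. With papain the KO to WT log2 ratio was 2.02 (1.62 to 2.43) for Trdc, 1.54 (0.97 to 2.13) for Tcrg-C1, 2.26 (0.82 to 4.02) for Trdv4 and 2.87 (2.12 to 3.70) for Cd163l1. With DPBS all 6 intervals included 0. In Papain KO 1 cell held 39 of 96 Tcrg-C1 UMIs and 1 cell 42 of 114 Cd163l1 UMIs. In Papain WT 1 cell held 28 of 66 Trdc UMIs. These intervals are therefore too narrow for the number of cells sampled. With papain the KO to WT log2 ratio of carrier shares was 1.18 (-0.31 to 2.79) for Trdc and 0.97 (-0.10 to 2.08) for Tcrg-C1. It was 1.85 (-0.76 to 5.25) for Trdv4 and 1.21 (-0.58 to 3.17) for Cd163l1.

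The cells behind these levels were few. The sub-cluster had 34, 26, 81 and 56 cells in the library order, and Trdc was found in 11, 6, 7 and 11 of them. Cells with 8 or more Trdc UMIs numbered 6, 4, 2 and 8, and cells with Cd163l1 numbered 8, 5, 5 and 8. Cells with Trac numbered 23, 19, 72 and 49, and cells with Cd4 numbered 8, 5, 54 and 30. The sub-cluster was a larger part of T-like cells with papain, at 1.28%, 1.5%, 3.33% and 2.92%, and its papain to DPBS log2 ratio was 1.38 (0.79 to 2.0) for WT and 0.96 (0.26 to 1.69) for KO. Both papain libraries thus had more type 17 T-like cells with Trac, and more with Cd4, than the DPBS libraries. Trac was found in 88.9% of the sub-cluster in Papain WT and 87.5% in Papain KO, with 66 and 246 Trdc UMIs. CPM of Trdc is taken over the UMIs of all cells of the sub-cluster. What part its make-up had in the Trdc level was not tested.

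Without the type 17 T-like cells, the KO to WT ratio of Cd163l1 with papain turned to -0.83 (-1.5 to -0.18), that of Trdv4 to -0.32 and that of Tcrg-C1 to -0.31, and that of Trdc was 0.28 (0.11 to 0.44). That of Tcrg-C4 was 0.74 (0.41 to 1.07), close to its value over all T-like cells. The papain to DPBS ratio of Cd163l1 in WT turned from -0.38 to 1.15 (0.49 to 1.85). Without the 3 sub-clusters led by markers of other classes, which include the Cd8-rich carriers, the KO to WT ratio of Cd163l1 with papain was 2.28 (1.67 to 2.95) and the papain to DPBS ratio in WT was -1.46 (-2.15 to -0.82). For Trdc, the KO to WT ratio with papain was then 0.82 (0.64 to 1.00). With papain in WT, the Cd163l1 level was thus lower in type 17 T-like cells and higher in the other T-like cells than with DPBS.

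In the sub-cluster led by Trdc, the level of Trdc was 1155, 1152, 1426 and 1703 CPM in the library order, over 24, 15, 16 and 13 cells. The KO to WT ratio on the log2 scale was 0.26 (-0.06 to 0.57) with papain, and that of papain to DPBS was 0.56 (0.26 to 0.87) in KO. Trdc was found in 15, 10, 14 and 13 of the cells, and cells with Trac and no Trdc numbered 8, 5, 2 and 0. The log2 ratio of carrier shares of papain to DPBS in KO was 0.58 (-0.72 to 1.93). What part the make-up of the sub-cluster had in the level was not tested. Tcrg-C4 was at 314, 509, 379 and 331 CPM. Neither gene had the low level in Papain WT that the type 17 T-like cells had.

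With DPBS, cells with Trdc and no Trac were 1.54% (1.11 to 2.09%) of T-like cells in WT and 2.08% (1.46 to 2.87%) in KO. With papain they were 2.10% (1.57 to 2.75%) in WT and 1.51% (1.02 to 2.17%) in KO. The intervals overlapped, and all 4 log2 ratios had intervals that included 0: 0.43 (-0.26 to 1.11) and -0.47 (-1.18 to 0.21) for KO against WT with DPBS and papain, and 0.44 (-0.18 to 1.07) and -0.46 (-1.22 to 0.29) for papain against DPBS in WT and KO. A difference between libraries was not detectable at this number of cells. Cells with 8 or more Trdc UMIs, whatever their Trac, numbered 47, 25, 30 and 38, and the signs of all 4 ratios were then the opposite: -0.29, 0.68, -0.52 and 0.46, each with an interval that included 0. Cells with both Trdc and Trac numbered 87, 70, 56 and 82, with a KO to WT log2 ratio of 0.89 (0.38 to 1.41) with papain.

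The gene programs of the carriers were compared with those of other T cells. Between the 157 cells with Trdc and no Trac and the T-like cells with Trac and no Trdc, 0.933% of 12537 genes were 2-fold or more higher in all 4 libraries and 0.128% were 2-fold or more lower. Of 19 type 17 genes with enough UMIs, 6 were higher in all 4 and 0 were lower, with a median log2 ratio of 1.96, against 0.27 over all genes. Il23r, the receptor chain for IL-23, had log2 ratios of 6.58, 4.24, 5.09 and 3.79 in the library order. They rest on 6, 4, 4 and 2 UMIs in the carriers and 4, 10, 6 and 10 in the T-like cells with Trac and no Trdc. Only 11 carriers had Il23r, and 10 of these were led by Tcrg-C1. Blk, a kinase of B cells and IL-17-making gamma-delta T cells, had log2 ratios of 5.04, 5.15, 3.32 and 4.43. Zbtb16, the transcription factor PLZF of innate-like T cells, had 3.71, 2.98, 4.83 and 3.18, from 7, 4, 10 and 3 UMIs in the carriers. The other 3 were 5830411N06Rik (3.58 to 5.01), Serpinb1a, a protease inhibitor (2.22 to 4.27), and Actn2, an actinin (1.44 to 2.18).

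Il17a, the effector cytokine gene of the type 17 list, did not hold over treatments in the cells with Trdc and no Trac. It had log2 ratios of 7.36 and 5.36 in the DPBS libraries and -0.67 and 1.79 in Papain WT and Papain KO. The carriers had 72, 39, 7 and 11 Il17a UMIs, while the T-like cells with Trac and no Trdc had 28, 45, 569 and 220. Cells with Il17a numbered 4, 3, 2 and 3 among the carriers and 8, 7, 29 and 17 among the T-like cells with Trac and no Trdc. The carriers held more Il17a UMIs than those cells in DPBS WT and fewer in each of the other libraries. Cells with both Trdc and Trac are in neither set. In the type 17 T-like sub-cluster, cells with 8 or more Trdc UMIs and Il17a numbered 5, 3, 1 and 8, whatever their Trac. Of the 8 cells with 8 or more Trdc UMIs there in Papain KO, 5 had Trac.

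Of 20 genes of a cytotoxic and interferon list, 8 were higher in all 4 libraries and 0 were lower, with a median log2 ratio of 1.29. They were Ccl5 and Xcl1, chemokines of cytotoxic cells, the NK receptors Klrk1, Klrc1 and Klre1, the cytokine receptor chain Il2rb, Cd160, and Fcer1g, a signalling adaptor. Ccl5 had log2 ratios of 2.54, 1.43, 2.11 and 2.26, Klrk1 2.66, 2.75, 2.21 and 2.86, and Fcer1g 2.92, 2.27, 2.63 and 3.11 in the library order. Gzma, granzyme A, did not hold, with 149, 1, 46 and 3 UMIs in the carriers. Those UMIs were nearly all from the WT libraries, and they lay in only 12 carriers (7.64%). In T-like cells with Trac and no Trdc, Gzma was instead higher in both KO libraries, at 35.9, 152, 28.8 and 110 CPM in the library order.

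The remaining lists differed less. Of 8 naive and recirculation genes 1 was lower in all 4 libraries, Dapl1, a gene of naive T cells, with log2 ratios of -2.17, -1.24, -2.14 and -3.04. Of 11 lineage regulators, 4 growth factor genes and 4 CD3 complex genes, 0 were past 2-fold in all 4, with median log2 ratios of 0.53, 0.28 and 0.33. Cd3e had log2 ratios of 0.11, 0.22, 0.38 and 0.36. Sox4, a lineage transcription factor, had log2 ratios of 0.28, 1.92, 3.05 and 1.11 and so stayed under 2-fold in DPBS WT alone.

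**Figure D5:**
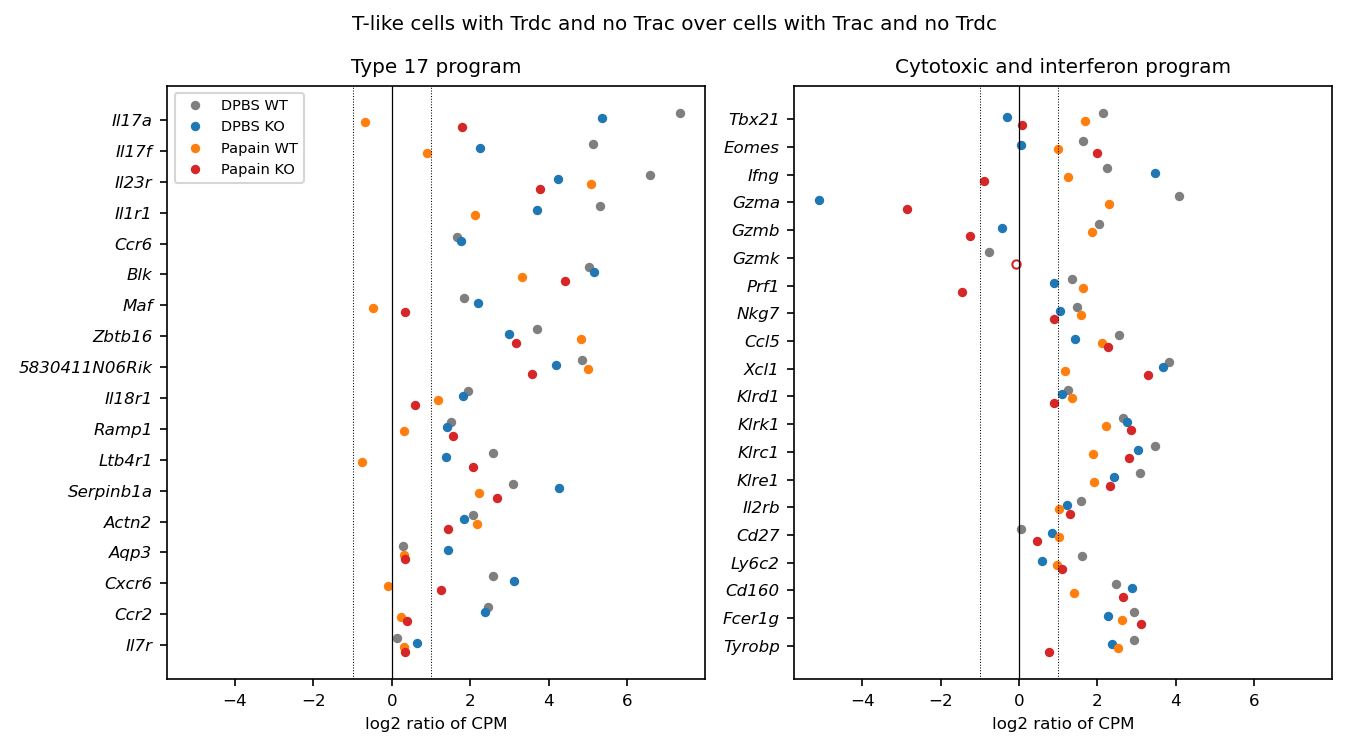
Log2 ratio of CPM between T-like cells with Trdc and no Trac and T-like cells with Trac and no Trdc, for genes of the type 17 and the cytotoxic and interferon lists in each library (colours), with open markers where a value is a bound. Il23r, Blk and Zbtb16 lie above 0 in all 4 libraries, and Il17a does so in 3.

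Within the 157 carriers the lists were also compared between libraries. For KO against WT with DPBS, 0 of 11 type 17 genes were 2-fold or more higher and 0 lower, and 0 of 18 cytotoxic genes were higher and 4 lower, where 8.53% of all genes were past 2-fold. With papain the counts were 0 and 0 of 9 type 17 genes and 3 and 5 of 18 cytotoxic genes, against 9.88%. For papain against DPBS, type 17 genes were higher in 0 and lower in 3 of 11 in WT, against 8.4%, and higher in 0 and lower in 4 of 11 in KO, against 9.27%. Cytotoxic genes were higher in 0 and lower in 3 of 19 in WT, and higher in 1 and lower in 2 of 15 in KO. These rest on 29 to 51 cells per library.

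Ift20, the targeted gene, checks which carriers had lost it. In T-like cells with Trac and no Trdc it was at 56.8 CPM in WT and 18.1 in KO mice given DPBS, and at 59.1 in WT and 17.3 in KO mice given papain, with KO to WT log2 ratios of -1.65 (-1.88 to -1.42) and -1.77 (-1.99 to -1.57). In T-like cells with 8 or more Trdc UMIs the ratios were -0.53 (-1.80 to 0.60) and -0.28 (-1.20 to 0.68), from 27 and 9 UMIs with DPBS and 18 and 26 with papain. In the sub-cluster led by Trdc they were -0.36 (-1.54 to 0.78) and -0.19 (-2.04 to 1.60). The Ift20 ratios of the cells richest in Trdc thus lay nearer 0 than those of T-like cells with Trac and no Trdc, and all 4 of their intervals included 0. The difference between these cells and the others was not tested.

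The cells with Trdc and no Trac were not uniform in this. Their Ift20 ratio was -0.09 (-1.28 to 1.08) with DPBS, from 15 UMIs in WT and 13 in KO, and -1.59 (-3.33 to -0.18) with papain, from 25 and 5. In the type 17 T-like sub-cluster, cells with Trac and no Trdc had -1.65 (-3.47 to -0.09) and -2.30 (-4.01 to -0.95). NK-like cells had -0.14 (-0.70 to 0.40) and -0.19 (-0.81 to 0.45), and ILC2-like cells 0.22 (-0.76 to 1.20) and -0.37 (-1.09 to 0.33). Both innate classes had intervals that included 0, and the cause was not tested. Where in Ift20 the counted reads fall, inside or outside the deleted exons, is not known from these counts.

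The genes most alike in level to Trdc were sought over 85 pairs of a cell class or T sub-cluster with a library, among 12962 genes, as Pearson's r of log2(CPM + 10). The pairs of a library share its depth and its mice, so r is given as a description. Among the members, Tcrg-C2 was closest to Trdc with r of 0.81, followed by Tcrg-C1 at 0.75, Tcrg-C4 at 0.62, Cd163l1 at 0.59 and Trdv4 at 0.42. Outside the 6, the closest were Cd7 (0.80), a surface protein of T and NK cells, the gamma variable gene Trgv2 (0.79), Cd160 (0.74), AI854703 (0.74), 2010300C02Rik (0.73), Gm20069 (0.71), the IL-18 receptor chain Il18r1 (0.70) and Pgm2l1 (0.69).

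Cd163l1 kept other company. Among the genes closest to it were Il17re (0.87), a chain of the IL-17C receptor, Rbpms2 (0.85), Fam83a (0.83), 5830411N06Rik (0.82), Ly6g5b (0.79), the IL-1 receptor Il1r1 (0.78) and Il22 (0.77), a cytokine gene of type 17 cells. The type 17 T-like sub-cluster, where Cd163l1 peaked, was among the cell classes compared, and 5830411N06Rik and Il1r1 were among the markers that named it. Trdc and Cd163l1 shared none of their 8 closest genes.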

How the data were processed

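The 4 libraries of lung leukocytes were analysed, each a group of its own, as GEO's labels give them. The values the authors deposited are raw UMI counts per gene and barcode, made with Cell Ranger (matrix software version 3.1.0) on mm10, and no other normalization had been applied. From these counts, barcodes with more than 200 genes and under 15% mitochondrial UMIs were kept. Scrublet in scanpy 1.11.5 scored doublets, and the top 0.8% of barcodes per 1000 barcodes of a library were removed. Cells were integrated and clustered in Seurat 5.3.0 (R 4.3.3; 2000 variable genes, 30 dimensions, resolution 0.8), with Ift20, receptor segments and the 6 genes kept out of the variable genes. Lymphoid clusters were clustered again. The study's own steps were followed where stated. Clusters were named from marker lists, and a class name ends in "-like".

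Values were computed with pandas 2.3.3, scipy 1.17.1 and numpy 2.4.6 under Python 3.11.15. Levels are CPM with exact Poisson intervals, shares have exact binomial (Clopper-Pearson) intervals, and ratios have exact conditional binomial intervals. A ratio against 0 UMIs used a floor of 3 counts as a bound. With 1 library per group no test across libraries was possible, so genes were described by a fold of 2 or more among genes with at least 20 UMIs. Total depth was 53854420 to 75675956 UMIs per library. The ratio computation was tested on simulated Poisson counts of genes, which hold no gathering of UMIs in few cells. The share computation was not tested in this way. Named genes were the 6 members, the other receptor, CD3 and coreceptor genes, the 8 genes most alike to Trdc and to Cd163l1, and fixed lists. The values of 1 list gene are not reported here. The members and lists were chosen with earlier results of these data known. Sequences were read from the mm10 genome with GENCODE M21 positions. Alternatives changed the filters, doublet removal, scaling (edgeR 4.0.16 TMM factors), the rule for carriers and the sub-clusters included.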

Additional observations from a re-analysis of the deposited data

Results flagged for a closer look

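The CPM of Trdc in T-like cells had papain to DPBS ratios on opposite sides of 0 in the genotypes. The log2 ratio of CPM of papain to DPBS was -0.42 (-0.56 to -0.27) in WT and 0.18 (0.03 to 0.33) in KO, 1 library on each side. The difference between the ratios was not tested, since there is 1 library per group, and the intervals cover counting error only. The KO ratio did not keep its interval above 0 in every setting. It was 0.13 (-0.02 to 0.28) with TMM factors, 0.12 (-0.03 to 0.27) with doublets kept and 0.02 (-0.15 to 0.20) without the type 17 T-like sub-cluster. The share of T-like cells with a Trdc UMI had log2 ratios of -0.13 in WT and -0.08 in KO, both with intervals that included 0.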

How the results depend on the processing

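No paired analysis was possible because each group had 1 library and none could be left out. For cells with Trdc and no Trac, a rule that also required no Trbc1 or Trbc2 UMI gave log2 ratios of the share of KO to WT of 1.62 with DPBS and 0.34 with papain, from 5 cells, and a rule of 8 or more Trdc UMIs, chosen after seeing the data, gave -0.29 and 0.68, with -0.52 and 0.46 for papain to DPBS in WT and KO. The other 42 of 48 alternatives of that share moved it by less than its counting interval, which included 0, and some changed its sign. For papain to DPBS in KO, -0.46 became 0.17 thinned to 1000 UMIs. It became 0.05 with an unplanned rule of at least as many Trdc as Trac UMIs. For KO to WT with papain, -0.47 became -0.002 and 0.06 in these settings. Of the KO to WT ratios with papain, Tcrg-C1 turned to -0.18 as a mean over cells, and leaving out the type 17 T-like sub-cluster (also chosen after seeing the data) turned Trdv4 to -0.32, Tcrg-C1 to -0.31 and Cd163l1 to -0.83; the cause was not tested. Over 36 alternatives each, 26 ratios of Trdc, 35 of Trdv4, 29 of Tcrg-C1, 32 of Tcrg-C2, 32 of Tcrg-C4 and 29 of Cd163l1 stayed within the counting interval. The share of genes past 2-fold in T-like cells depended on the UMI minimum. For KO against WT with DPBS and papain and papain against DPBS in WT and KO it was 9.59%, 10.1%, 11.3% and 9.13% with at least 1 UMI, and 1.44%, 1.87%, 3.28% and 1.2% with at least 100. Depth limits what can be said of Trdv4, with 4 to 24 UMIs per library.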

Other observations

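Outside T-like, NK-like and ILC2-like cells the members were scarce and gathered in few cells of 1 library. Among 14801 cells of the other named classes there were 82 Trdc UMIs in 34 cells, and 60 of them lay in 13 cells of Papain KO, against 10, 4 and 8 UMIs in DPBS WT, DPBS KO and Papain WT. Of 22 Cd163l1 UMIs in those classes, 16 lay in 5 Papain KO cells. In B-like cells 1 cell held 26 of 42 Trdc UMIs.

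Trdv2-2, a delta variable gene, was found in 19 NK-like cells with 20 UMIs and in 0 ILC2-like cells, while Trdv4 was found in 14 NK-like and 22 ILC2-like cells. Tcrg-V5 had 5 UMIs in 4 ILC2-like cells and 1 UMI in T-like cells.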
